A study of Homo sapiens with 30 samples.

Results

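The 7 genes described here encode parts of the machinery that moves sodium across epithelia, out of 60554 genes counted in each library. They were chosen by symbol. SCNN1A, SCNN1B and SCNN1G encode the alpha, beta and gamma subunits of the epithelial sodium channel. SGK1 and SGK3 encode serum and glucocorticoid regulated kinases, NEDD4L encodes a ubiquitin ligase, and ATP1B1 encodes a beta subunit of the sodium pump. All 7 passed the filter on low counts in every comparison. RNA-seq was made from T47D, a human luminal breast cancer cell line rich in progesterone receptor, in 12 libraries that formed 6 groups of 2. Cells had received a control siRNA (siControl) or one directed at CEBPA (siCEBPA), or carried the label ICRF, and each of these 3 settings had an untreated group and a group with progestin. CEBPA encodes the transcription factor C/EBP alpha, and the series asks whether it mediates growth inhibition by progestins. The remaining 18 of the 30 samples are ChIP-seq and were not analysed here.

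The hormone was R5020, a synthetic progestin, used at 10 nM per the labels' protocols, although the titles name progesterone. The siRNA libraries had a growth arrest of 4 hours, and their untreated and treated members carried the time labels 0 and 360, without a unit. Hormone and time label therefore cannot be told apart in them. The ICRF libraries carry no siRNA, arrest or time label, and the labels do not explain the name, commonly used for topoisomerase II inhibitors. ICRF, siRNA transfection, time and experiment cannot be told apart when ICRF and siRNA libraries are compared. The labels do not say whether the 2 replicates of a group were separate cultures, so p-values reflect only how far these libraries scatter, and that scatter may be technical.

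In the kidney collecting duct, the lung and the distal colon, sodium enters an epithelial cell through the epithelial sodium channel at the apical membrane and leaves through the sodium pump at the basolateral membrane. The ubiquitin ligase encoded by NEDD4L binds the channel and sends it for internalisation and degradation. The SGK kinases, which are activated through phosphoinositide signalling, phosphorylate this ligase and so keep channels at the surface. Aldosterone and glucocorticoids raise several of these genes through the mineralocorticoid and glucocorticoid receptors, which are close relatives of the progesterone receptor and bind a similar DNA element.

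Library totals ran from 57364785 to 148624099 counts, and the deepest library was untreated siControl replicate 2. CEBPA had a mean of 51.1 CPM (CPM are a gene's counts relative to all counts of the library, scaled by TMM factors) in untreated siControl and 11.4 CPM in untreated siCEBPA cells, and of 206 and 59.9 CPM with progestin, so the siRNA lowered its messenger RNA in both states. All 9 luminal markers were above 1 CPM in all 12 libraries. Their summed level was 8700 to 9720 CPM in siControl and 7040 to 7520 CPM in siCEBPA libraries. It was 10600 CPM in both untreated ICRF libraries and 5020 to 5280 CPM in those with progestin. Single markers moved within these sums: with progestin 1 of 9 rose and 5 fell in siControl cells, 1 and 6 in siCEBPA cells, and all 9 fell in ICRF cells. By the same test, given below, 58.5%, 58.2% and 61.4% of all genes rose or fell in these settings. In siControl cells KRT19 rose from a mean of 2310 to 4260 CPM, while FOXA1 fell from 441 to 73.1 CPM and PGR from 981 to 276 CPM. The 6 basal and myoepithelial markers summed to 14 to 22.9 CPM in the siRNA libraries and 34.1 to 45.8 CPM in the ICRF libraries, with KRT14 at 0.127 CPM or less. KRT5 was at or near 0 in untreated cells and rose with progestin, to means of 0.507 CPM in siControl, 2.01 CPM in siCEBPA and 1.76 CPM in ICRF cells. Of 8 fibroblast, endothelial and blood cell markers, 7 were under 1 CPM in every library, and COL1A1 was at 25.6 to 69.1 CPM. The part of these marker differences in the results below was not tested. In bulk libraries fewer cells with a transcript and less transcript per cell cannot be told apart.

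**Figure D1:**
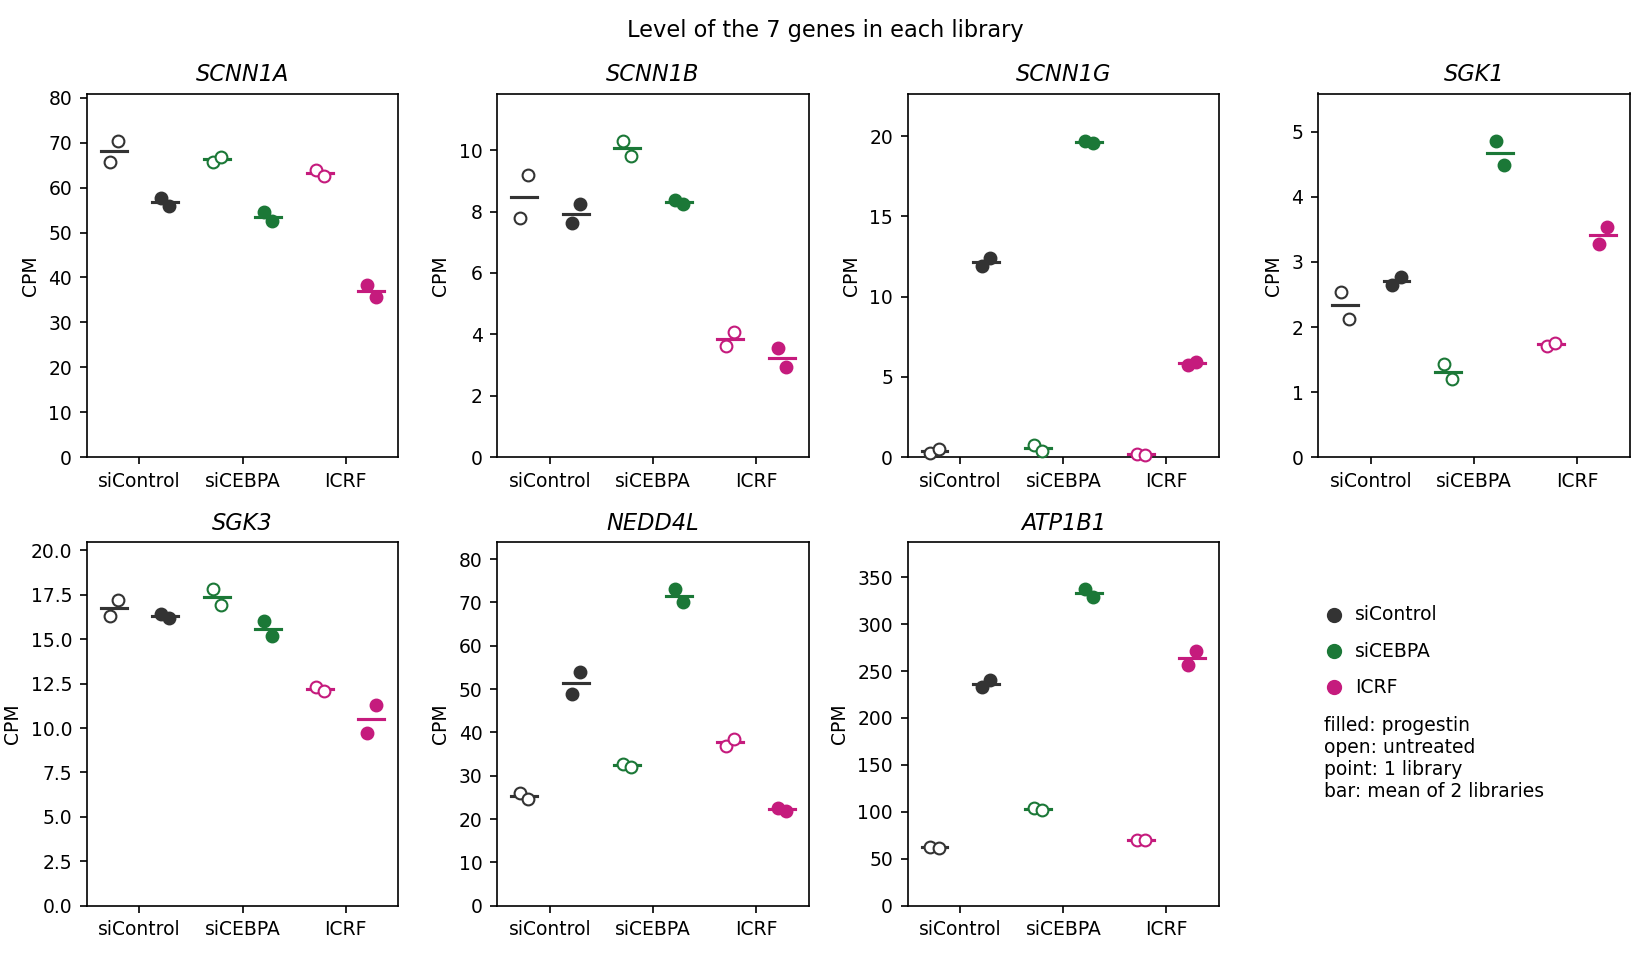
Level of the 7 genes in each library. The vertical axis of each panel is CPM on a linear scale from 0. Each point is 1 library, open for untreated and filled for progestin, and each bar is the mean of the 2 libraries of a group. SCNN1G and ATP1B1 lay higher with progestin in all 3 settings, NEDD4L lay higher in the siRNA libraries and lower with ICRF, and SGK1 changed order between siControl and siCEBPA cells.

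With progestin, 3 of the 7 genes rose in siControl cells (SCNN1G, NEDD4L and ATP1B1) and 1 fell (SCNN1A), at an adjusted p under 0.05 from edgeR's quasi-likelihood test over all genes. Of all 18351 genes tested in these libraries 58.5% were called, as 29.2% rose and 29.3% fell, so the 4 called among 7 are a share close to that of all genes. In siCEBPA cells 4 of 7 rose, SGK1 being the addition, and 2 fell, SCNN1A and SCNN1B, where 58.2% of all genes were called, 29.9% rising and 28.4% falling. In ICRF cells 3 of 7 rose (SCNN1G, SGK1 and ATP1B1) and 3 fell (SCNN1A, SGK3 and NEDD4L), where 61.4% of 18556 genes were called, 31.3% rising and 30% falling. The balance of calls over all genes depended on the scaling. Of the genes called in siControl cells, 50% rose with TMM factors, 38.2% with upper quartile scaling and 33.9% without scaling factors, which moved the median of all genes from -0.03 to -0.15 and -0.19 on the log2 scale. In siCEBPA cells these shares were 51.3%, 36.9% and 33.3%, with medians of -0.03, -0.16 and -0.19.

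**Figure D2:**
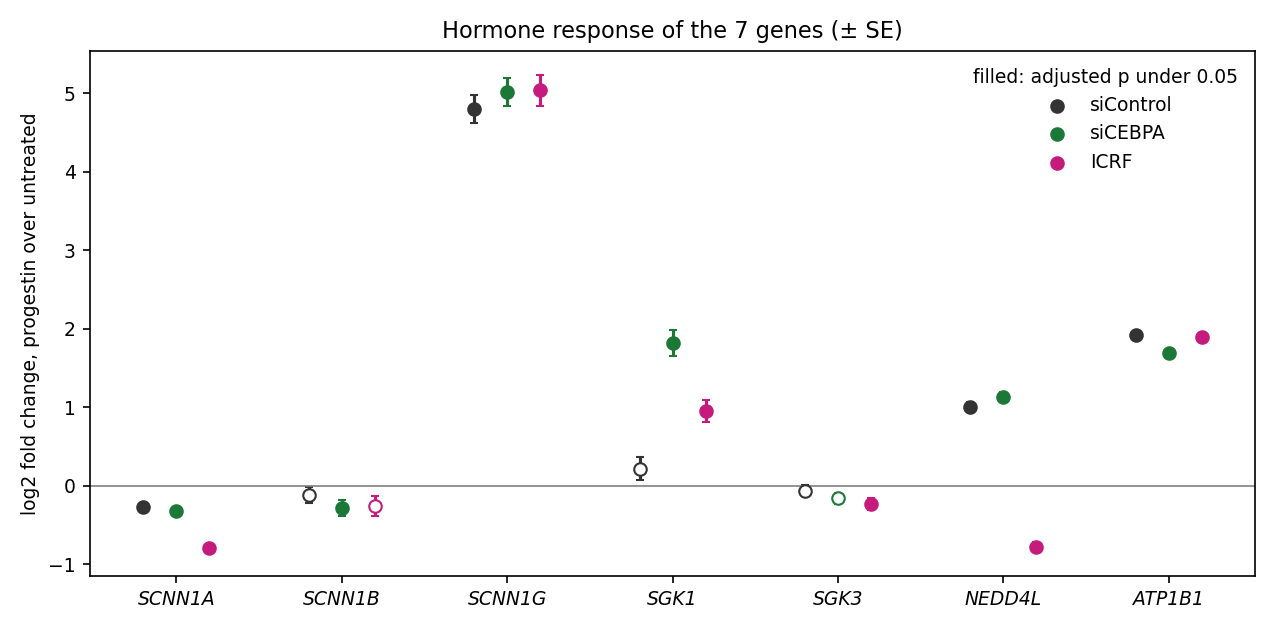
Hormone response of the 7 genes. The vertical axis is the log2 fold change of progestin over untreated from edgeR, points are the 3 settings, bars are ± 1 SE, and filled points had an adjusted p under 0.05. SCNN1G stood at 4.80 to 5.04 and ATP1B1 at 1.69 to 1.92 in the 3 settings, while NEDD4L was at 1.01 and 1.13 with the siRNAs and at -0.78 with ICRF.

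Among the channel subunits, SCNN1G showed the largest response. The gene (ENSG00000166828.2) lies on chromosome 16 at 23182715 to 23216883 (hg38, plus strand, 13 exon blocks). In untreated cells it was near the limit of detection, with 20 and 76 read pairs in the siControl libraries, 53 and 26 in the siCEBPA libraries and 22 and 15 in the ICRF libraries. These counts correspond to 0.287 and 0.505 CPM in siControl, 0.775 and 0.411 CPM in siCEBPA and 0.212 and 0.139 CPM in ICRF cells. With progestin it reached 11.9 and 12.4 CPM in siControl, 19.7 and 19.6 CPM in siCEBPA and 5.74 and 5.95 CPM in ICRF cells. Every treated library was above every untreated one, whatever the setting. The change was 4.80 ± 0.18 (log2, SE, n = 2 against 2, edgeR adjusted p = 1.32e-11) in siControl cells, a 27.8-fold rise that ranked 62 among 18351 genes. It was 5.02 ± 0.18 in siCEBPA cells (adjusted p = 8.5e-12) and 5.04 ± 0.20 in ICRF cells (adjusted p = 7.78e-26). Leaving out 1 library at a time, these changes ran from 4.58 to 5.38, 4.66 to 5.58 and 4.77 to 5.36.

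SCNN1A encodes the subunit that can form a channel without the others. It lies on chromosome 12 at 6346843 to 6377730 (hg38, minus strand, 17 exon blocks; ENSG00000111319.12), and 7.18% of its exon bases overlap LTBR on the opposite strand. It was at 65.8 and 70.4 CPM in untreated siControl libraries and at 57.8 and 56.0 CPM with progestin. In siCEBPA cells it was at 65.8 and 66.8 CPM untreated and at 54.6 and 52.5 CPM treated. In ICRF cells it was at 64.0 and 62.6 CPM untreated and at 38.4 and 35.7 CPM treated. Untreated levels lay between 62.6 and 70.4 CPM in all 3 settings, and treated libraries lay lower in each, the ICRF libraries by the most. The log2 changes were -0.27 ± 0.05 (SE; adjusted p = 0.000262), -0.32 ± 0.05 (adjusted p = 7.1e-05) and -0.79 ± 0.05 (adjusted p = 6.03e-19), each with n = 2 against 2 in edgeR.

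SCNN1B, the beta subunit gene, neighbours SCNN1G on chromosome 16 (23278231 to 23381299, hg38, plus strand, 19 exon blocks; ENSG00000168447.10). Its level was 7.80 and 9.18 CPM in untreated and 7.63 and 8.23 CPM in treated siControl libraries, which overlapped. It was 10.3 and 9.81 CPM before and 8.38 and 8.24 CPM after progestin in siCEBPA cells. With ICRF it was 3.62 and 4.08 CPM untreated and 3.54 and 2.95 CPM treated, under every siRNA library. The hormone change did not pass the test in siControl cells (-0.12 on the log2 scale, 95% interval -0.33 to 0.08, adjusted p = 0.297) or in ICRF cells (-0.26 ± 0.13, adjusted p = 0.0682). In siControl cells it passed with upper quartile scaling (-0.23, adjusted p = 0.0483) and without scaling factors (-0.27, adjusted p = 0.0203). It passed in siCEBPA cells (-0.28 ± 0.10, edgeR adjusted p = 0.0218), but not with DESeq2 (adjusted p = 0.0504) or without untreated replicate 1 (0.129), progestin replicate 1 (0.0536) or progestin replicate 2 (0.0853) of siCEBPA.

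Levels of different genes can be compared only per length of exon, and then only roughly. The length covers all annotated exons of a gene, and the transcripts present may use only some of them. On this scale SCNN1A stood at 11.6 ± 0.553 CPM per kb (SD, n = 2) in untreated siControl cells, SCNN1B at 2.17 ± 0.249 and SCNN1G at 0.113 ± 0.0439. SCNN1G thus made up 0.806% ± 0.267 of the summed messenger RNA of SCNN1A, SCNN1B and SCNN1G in untreated siControl cells and 22.8% ± 0.687 with progestin. The share went from 1.21% ± 0.521 to 33.3% ± 0.459 in siCEBPA cells and from 0.423% ± 0.121 to 19.0% ± 1.32 in ICRF cells. SCNN1A remained the most abundant subunit in all 12 libraries, at 53.7% to 54.5% in the treated siCEBPA libraries, where its share was lowest. With progestin SCNN1G passed SCNN1B per kb in each setting. The sum leaves out SCNN1D, the gene of the delta subunit, which was at 0.314 ± 0.0603 CPM per kb in untreated siControl cells, above SCNN1G. With progestin it was at 0.219 ± 0.0361 there. All SDs here are over 2 libraries, and the shares were not tested.

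**Figure D3:**
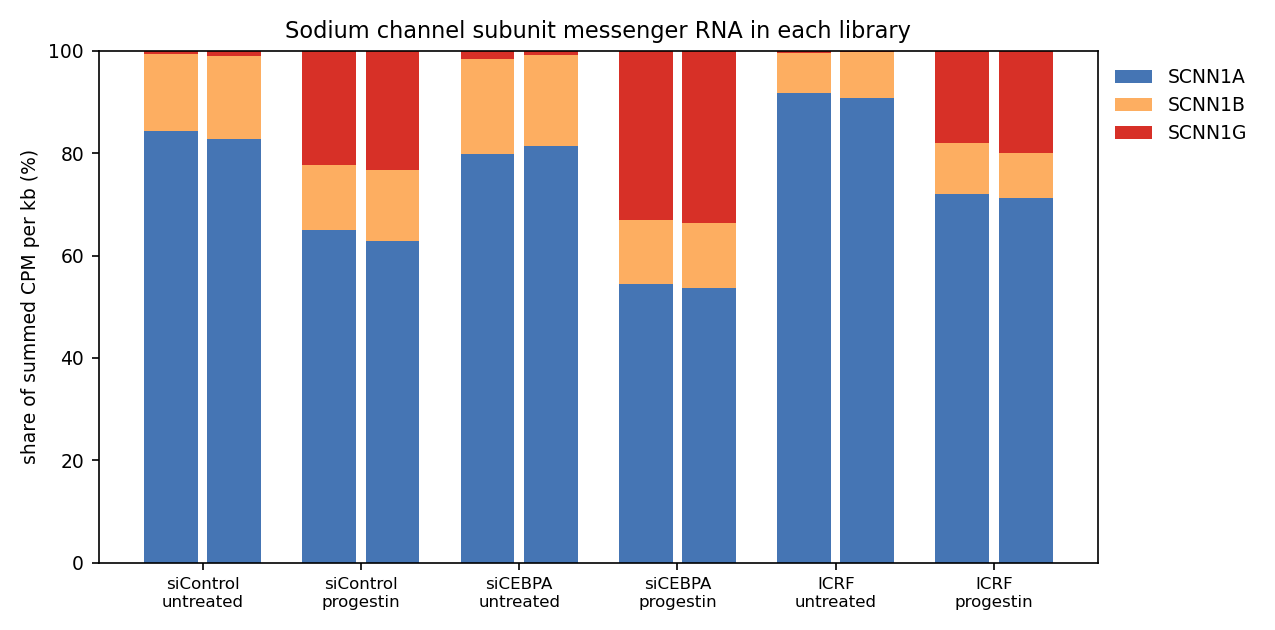
Shares of SCNN1A, SCNN1B and SCNN1G in their summed messenger RNA in each library, without the delta subunit gene. The vertical axis is the share of the summed CPM per kb of exon (percent), each bar is 1 library, and the colours are the 3 subunit genes. The SCNN1G segment is at most 1.58% in untreated libraries and 18% to 33.6% in treated ones.

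SGK1, the kinase gene known for its rapid induction by corticosteroids, lies on chromosome 6 at 134169246 to 134318112 (hg38, minus strand, 11 exon blocks; ENSG00000118515.11). It was at 2.54 and 2.13 CPM in untreated and at 2.64 and 2.77 CPM in treated siControl libraries. In siCEBPA cells it was at 1.43 and 1.20 CPM untreated and at 4.86 and 4.49 CPM treated. In ICRF cells it was at 1.71 and 1.76 CPM untreated and at 3.28 and 3.54 CPM treated. The treated libraries were above the untreated ones in each setting, but the step in siControl cells was within the summed SDs of the groups. The siCEBPA groups held both the lowest and the highest level of the 6 groups. The hormone change in siControl cells was 0.22 ± 0.15 (log2, SE, n = 2 against 2) and did not pass the test (edgeR adjusted p = 0.224, 95% interval -0.10 to 0.53). SGK1 rose by 1.82 ± 0.16 in siCEBPA cells (3.52-fold, adjusted p = 5.04e-08) and by 0.96 ± 0.14 in ICRF cells (1.94-fold, adjusted p = 1.62e-07).

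RefSeq gives SGK1 several start sites, and windows before 3 of them were in the promoter table used here (GRCh38.p14). They are shown because SGK1 had the largest difference in hormone response between siCEBPA and siControl cells among the 7 genes, ranking 209 from the highest of all 18351 genes. Each is written 5′ to 3′ on the minus strand, trimmed to bases outside the annotated exons, with a match to the C/EBP motif TTGCNNAA in capitals. The first is chr6:134318113-134318362, the second chr6:134177906-134178111 and the third chr6:134174897-134175116.
SGK1 start 1: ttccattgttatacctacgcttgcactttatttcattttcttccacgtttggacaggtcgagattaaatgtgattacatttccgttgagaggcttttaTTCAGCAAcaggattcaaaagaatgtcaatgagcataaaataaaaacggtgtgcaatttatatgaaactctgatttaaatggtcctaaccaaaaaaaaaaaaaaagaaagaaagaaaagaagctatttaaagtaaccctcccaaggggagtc
SGK1 start 2: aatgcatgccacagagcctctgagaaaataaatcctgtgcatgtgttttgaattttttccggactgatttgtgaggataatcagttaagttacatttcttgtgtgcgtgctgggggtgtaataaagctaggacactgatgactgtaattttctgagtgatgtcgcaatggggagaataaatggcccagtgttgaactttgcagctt
SGK1 start 3: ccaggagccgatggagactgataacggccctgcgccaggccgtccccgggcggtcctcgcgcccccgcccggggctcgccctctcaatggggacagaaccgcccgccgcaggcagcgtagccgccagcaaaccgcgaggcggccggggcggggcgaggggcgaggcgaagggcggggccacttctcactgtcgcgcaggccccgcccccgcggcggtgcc
The windows differ in base composition, with 33.6% G or C before start 1, 41.3% before start 2 and 78.2% before start 3. The only match to the C/EBP motif on either strand was before start 1, at -152 to -145 from the start, and it reads TTCAGCAA, which is the motif on the other strand. Of all 35116 windows of 250 bases before a start, 9.05% held this motif. The palindromic hormone receptor element, in 0.327% of windows, was in none of the 10 windows of the 4 genes that had them (SGK1, NEDD4L, ATP1B1 and SCNN1B). One arm of that element, TGTTCT, searched on both strands and in 12.4% of windows, matched once, at -78 to -73 before NEDD4L start 1. All 250 bases of that window, and of the ATP1B1 window, lie in annotated exons of the gene itself. A match is a string of letters and was not tested for binding, and counts per gene do not show which start was used.

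SGK3 lies on chromosome 8 (66712418 to 66862022, hg38, plus strand, 21 exon blocks; ENSG00000104205.12) and encodes the family member with a lipid-binding domain that places it on endosomes. Its level is uncertain, since 41.7% of its exon bases are also annotated to another gene on the same strand, which had 0 to 6 counts. It was at 16.3 and 17.2 CPM untreated and 16.4 and 16.2 CPM treated in siControl libraries, which overlapped. It was at 17.8 and 16.9 CPM untreated and 16.0 and 15.2 CPM treated in siCEBPA cells. With ICRF it was at 12.3 and 12.1 CPM untreated and 9.74 and 11.3 CPM treated, all under the siRNA libraries. The change with hormone passed the test in ICRF cells (-0.23 ± 0.08, n = 2 against 2, edgeR adjusted p = 0.0121). That call was lost with DESeq2 (adjusted p = 0.0507) and without ICRF untreated replicate 1 (0.0675) or progestin replicate 1 (0.222). The change was -0.06 in siControl cells (95% interval -0.21 to 0.09) and -0.16 in siCEBPA cells (-0.32 to -0.01, adjusted p = 0.0612). With upper quartile scaling or no scaling factors it passed in both, at adjusted p = 0.0477 and 0.0149 in siControl and 0.00197 and 0.000728 in siCEBPA cells. Per kb of exon, SGK1 made up 7.75% ± 1.17 (SD, n = 2) of SGK1 plus SGK3 in untreated siControl cells and 9.09% ± 0.368 with progestin. This share was 4.35% ± 0.372 and 15.3% ± 0.266 in siCEBPA cells, and 7.90% ± 0.232 and 16.3% ± 0.697 in ICRF cells. All these shares carry the uncertainty of the SGK3 level.

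NEDD4L, the ligase gene (chromosome 18, 58044367 to 58401540, hg38, plus strand, 48 exon blocks; ENSG00000049759.16), moved in opposite directions in the siRNA and the ICRF libraries. It was at 26.0 and 24.7 CPM in untreated siControl libraries and at 48.8 and 54.0 CPM with progestin. In siCEBPA cells it was at 32.8 and 32.1 CPM untreated and at 73.0 and 70.0 CPM treated. In ICRF cells it was at 36.9 and 38.5 CPM untreated and at 22.6 and 21.9 CPM treated. No groups overlapped, and untreated ICRF cells had more of it than untreated siControl cells, while treated ICRF cells had the least of all 6 groups. NEDD4L rose by 1.01 ± 0.06 (log2, SE, n = 2 against 2, edgeR adjusted p = 5.76e-10) in siControl and by 1.13 ± 0.06 (adjusted p = 1.31e-10) in siCEBPA cells. In ICRF cells it fell by 0.78 ± 0.06 (adjusted p = 1.3e-16). The ratio of SCNN1A to NEDD4L, in CPM per kb, went from 7.38 ± 0.604 (SD, n = 2) to 3.05 ± 0.285 with progestin in siControl cells and from 5.61 ± 0.151 to 2.06 ± 0.0031 in siCEBPA cells. It was 4.61 ± 0.217 and 4.58 ± 0.129 in ICRF cells, where both genes fell.

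ATP1B1, the pump subunit gene, lies on chromosome 1 at 169105697 to 169132722 (hg38, plus strand, 8 exon blocks; ENSG00000143153.12), and 6.48% of its exon bases overlap NME7 on the opposite strand. The beta subunit brings the catalytic alpha subunit to the membrane. ATP1B1 was at 62.8 and 61.2 CPM in untreated siControl libraries and at 233 and 240 CPM with progestin. In siCEBPA cells it was at 104 and 102 CPM untreated and at 337 and 329 CPM treated. In ICRF cells it was at 70.3 and 69.6 CPM untreated and at 256 and 271 CPM treated. None of the 6 groups overlapped, every treated library was above every untreated one, and the siCEBPA groups were the highest of the untreated and of the treated groups. It rose by 1.92 ± 0.04 (log2, SE, n = 2 against 2, 3.78-fold, edgeR adjusted p = 2.52e-15) in siControl, 1.69 ± 0.04 (adjusted p = 9.43e-15) in siCEBPA and 1.90 ± 0.04 (adjusted p = 6.28e-37) in ICRF cells. The other main beta gene, ATP1B3, had means of 188 and 219 CPM in untreated and treated siControl cells, a rise of 0.21. ATP1B1 went from 22.4% to 48.5% ± 0.607 (SD, n = 2) of ATP1B1 plus ATP1B3 per kb in siControl cells. It went from 37.2% ± 0.878 to 59.5% ± 0.148 in siCEBPA and from 21.8% ± 0.358 to 49.7% ± 0.977 in ICRF cells.

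The siRNA against CEBPA moved some of these genes without hormone. In untreated cells 3 of 7 genes were higher with it (ATP1B1, NEDD4L and SCNN1B) and 1 lower (SGK1), where 46.6% of all genes were called, 22.6% higher and 24% lower. Of all genes called here, 48.5% were higher, against 65.3% without scaling factors. ATP1B1 was higher by 0.74 ± 0.04 (log2, SE, n = 2 against 2, 1.67-fold, edgeR adjusted p = 9.77e-10) and NEDD4L by 0.37 ± 0.06 (adjusted p = 0.000136). SGK1 was lower by 0.79 ± 0.16 (-0.79, 0.577 of the siControl level, adjusted p = 0.000751). SCNN1B was higher by 0.24 ± 0.09 with an adjusted p of 0.0465, which ended with DESeq2 (0.0828), in a fit of all 12 libraries (0.0703) and without a filter on low counts (0.107). It also ended in 5 of the 8 fits that left out 1 library (adjusted p of 0.0626 to 0.352), those without siControl untreated replicate 1, siControl progestin replicate 1 or 2, or siCEBPA untreated replicate 1 or 2. SCNN1G was at 0.49 ± 0.28 (adjusted p = 0.18) from few counts, and the value moved with the libraries used. It was -0.06 without siCEBPA untreated replicate 1, 0.85 (adjusted p = 0.0223) without siCEBPA untreated replicate 2 and 1.06 (adjusted p = 0.0281) without siControl untreated replicate 2. SCNN1A (-0.03, 95% interval -0.14 to 0.08) and SGK3 (0.06, -0.09 to 0.21) did not pass.

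In treated cells 4 of 7 genes were higher with the siRNA against CEBPA, where 44.6% of all genes were called, 22.5% higher and 22.1% lower. Of all genes called, 50.5% were higher, against 64.9% without scaling factors. The 4 were SCNN1G (0.71 ± 0.12, n = 2 against 2, edgeR adjusted p = 0.000302), SGK1 (0.80 ± 0.14, adjusted p = 0.000263), NEDD4L (0.49 ± 0.06, adjusted p = 5.73e-06) and ATP1B1 (0.51 ± 0.04, adjusted p = 4.59e-08). In linear terms SCNN1G was 1.64-fold, SGK1 1.75-fold, NEDD4L 1.41-fold and ATP1B1 1.42-fold the siControl level. The libraries of the groups did not overlap in any of the 7 genes, so the lack of overlap does not set these 4 apart. No member was lower by edgeR (0 at the adjusted threshold, 0 at an unadjusted p under 0.05, and 0 by DESeq2). SCNN1A (-0.07), SCNN1B (0.08) and SGK3 (-0.05) did not pass. SGK1 was thus lower without hormone and higher with it under the siRNA against CEBPA. The siRNA did not remove CEBPA, which in treated siCEBPA cells had a mean of 59.9 CPM, beside 51.1 CPM in untreated siControl cells.

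The hormone response itself differed between siCEBPA and siControl cells for 2 of the 7 genes, 1 in each direction, where 7.24% of all genes were called, 4.19% with a higher and 3.06% with a lower response. For SGK1 the difference was 1.60 ± 0.22 (log2, SE, 95% interval 1.14 to 2.06, edgeR adjusted p = 0.000235), and it ran from 1.48 to 1.74 when 1 library was left out. For ATP1B1 it was -0.23 ± 0.06 (adjusted p = 0.018), a smaller rise from a higher untreated level. This call ended without siControl untreated replicate 2 (adjusted p = 0.0803), siControl progestin replicate 2 (0.111), siCEBPA untreated replicate 1 (0.0665) or siCEBPA progestin replicate 2 (0.0565), with the value between -0.21 and -0.22. SCNN1G, at 0.23 ± 0.31 (-0.44 to 0.89), did not pass, and its sign turned without siControl untreated replicate 2 (-0.35) or siCEBPA untreated replicate 2 (-0.14). NEDD4L was at 0.12 ± 0.09 (-0.06 to 0.31), SCNN1A at -0.04 ± 0.07 (-0.20 to 0.11), SCNN1B at -0.16 ± 0.14 (-0.45 to 0.13) and SGK3 at -0.11 ± 0.10 (-0.32 to 0.11).

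The response with ICRF differed from that in siControl cells for 3 of 7 genes, where 48.9% of 19003 genes were called, 24.9% with a higher and 24% with a lower response. Of all genes called, 50.9% had the higher response with ICRF, against 65.2% without scaling factors, which moved the median of all genes from 0.02 to 0.17. NEDD4L showed the largest difference of the 7, -1.78 ± 0.08 (log2, SE, 95% interval -1.95 to -1.62, edgeR adjusted p = 2.61e-13). It was -0.51 ± 0.07 for SCNN1A (adjusted p = 2.86e-06) and 0.74 ± 0.20 for SGK1 (adjusted p = 0.00329). These 3 calls held in all 18 alternative fits, in which NEDD4L ran from -1.85 to -1.63, SCNN1A from -0.60 to -0.36 and SGK1 from 0.63 to 0.90. ATP1B1 did not pass, at -0.02 ± 0.05 (-0.13 to 0.09), nor did SCNN1G, at 0.24 ± 0.34 (-0.47 to 0.96). SGK3, at -0.17 ± 0.11, passed only without ICRF progestin replicate 2 (-0.32, adjusted p = 0.0274), and SCNN1B was at -0.14 ± 0.15. Both differences of responses use the same siControl libraries, so they are not independent of each other.

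The order of the 6 groups differed from gene to gene. For SCNN1G the group means ran from 0.175 ± 0.0514 CPM (SD, n = 2) in untreated ICRF cells over 0.396 ± 0.154 in untreated siControl and 0.593 ± 0.257 in untreated siCEBPA cells, whose libraries overlapped, to 5.85, 12.1 and 19.7 CPM in treated ICRF, siControl and siCEBPA cells. For SGK1 they ran from 1.32 ± 0.163 CPM in untreated siCEBPA over 1.74 ± 0.0334 in untreated ICRF, 2.34 ± 0.290 and 2.71 ± 0.0939 in untreated and treated siControl, and 3.41 ± 0.181 in treated ICRF, to 4.67 ± 0.261 CPM in treated siCEBPA cells. SCNN1B and SGK3 shared a split between ICRF libraries, which were low, and siRNA libraries, which were high. Some groups inside these also stood apart by more than their summed SDs. Untreated siCEBPA cells had 10 ± 0.311 CPM of SCNN1B, over 8.49 ± 0.977 in untreated siControl cells. ICRF cells had 12.2 ± 0.154 CPM of SGK3 untreated and 10.5 ± 1.09 treated. Over the 12 libraries the Pearson correlation of log2(CPM + 0.1) was 0.96 between SCNN1G and ATP1B1, 0.95 between SCNN1B and SGK3 and 0.82 between SCNN1G and SGK1. These 12 points share their groups, so the values describe the pattern and carry no test.

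By the same measure, among genes that have a symbol and average 1 CPM or more, the genes most like SCNN1G were SLC39A14 (r = 0.992), MTF1 (0.991) and MAP7D2 (0.991). Those most like ATP1B1 were FLVCR1 (0.992), GLCE (0.991) and GREB1L (0.990). SCNN1A was most like ZFAND3 (0.993), KCTD15 (0.986) and GJB5 (0.986), and NEDD4L most like IFNGR2 (0.980), FBXO32 (0.973) and PPM1H (0.970). Among those closest to SCNN1B were FGFBP2 (0.984) and PTOV1-AS2 (0.983), and among those closest to SGK3 were TMEM92 (0.991) and METTL2B (0.979). SGK1 had the least close matches of the 7, GABRQ (0.928), ADAP2 (0.925) and SASH1 (0.911).

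The wider pathway was taken as 94 further genes in 7 lists. In siControl cells 43 of the 85 that were tested rose with progestin and 23 fell, in siCEBPA cells 44 and 24 of 85, and in ICRF cells 35 and 26 of 81. The calls make up 77.6%, 80% and 75.3% of the genes tested, beside 58.5%, 58.2% and 61.4% of all genes, and the median log2 changes were 0.14, 0.15 and 0.07 beside -0.03, -0.03 and -0.01. The lists were chosen with earlier results of these data known, so these shares and those of single lists are not a test of the pathway. Among upstream receptors and genes known to respond to aldosterone, 10 of 12 tested rose in each setting. The median of this list was 2.52 in siControl, 1.93 in siCEBPA and 1.41 in ICRF cells. TSC22D3, encoding the leucine zipper protein GILZ, went from 38.8 to 636 CPM in siControl cells (4.02 ± 0.05, n = 2 against 2, edgeR adjusted p = 5.71e-17) and rose by 3.93 in siCEBPA and 2.03 in ICRF cells. FKBP5, a receptor co-chaperone gene, rose by 2.65, 2.35 and 1.27, and the clock gene PER1 by 1.69, 1.51 and 1.48. DUSP1, a phosphatase gene, rose by 2.39 in siControl and by 1.05 in siCEBPA cells, a difference of -1.34 that passed the test. The genes that fell were the receptor genes NR3C1, for the glucocorticoid receptor (-0.65, -0.45 and -0.98), and NR3C2, for the mineralocorticoid receptor, which fell in siControl (-1.47) and siCEBPA cells (-1.19) and was at 0.15 with ICRF (adjusted p = 0.23). HSD11B2, which encodes the enzyme that inactivates cortisol and was singled out after its values were seen, went from 3.92 to 28.9 CPM in siControl cells (2.88 ± 0.12, adjusted p = 9.55e-11).

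**Figure D4:**
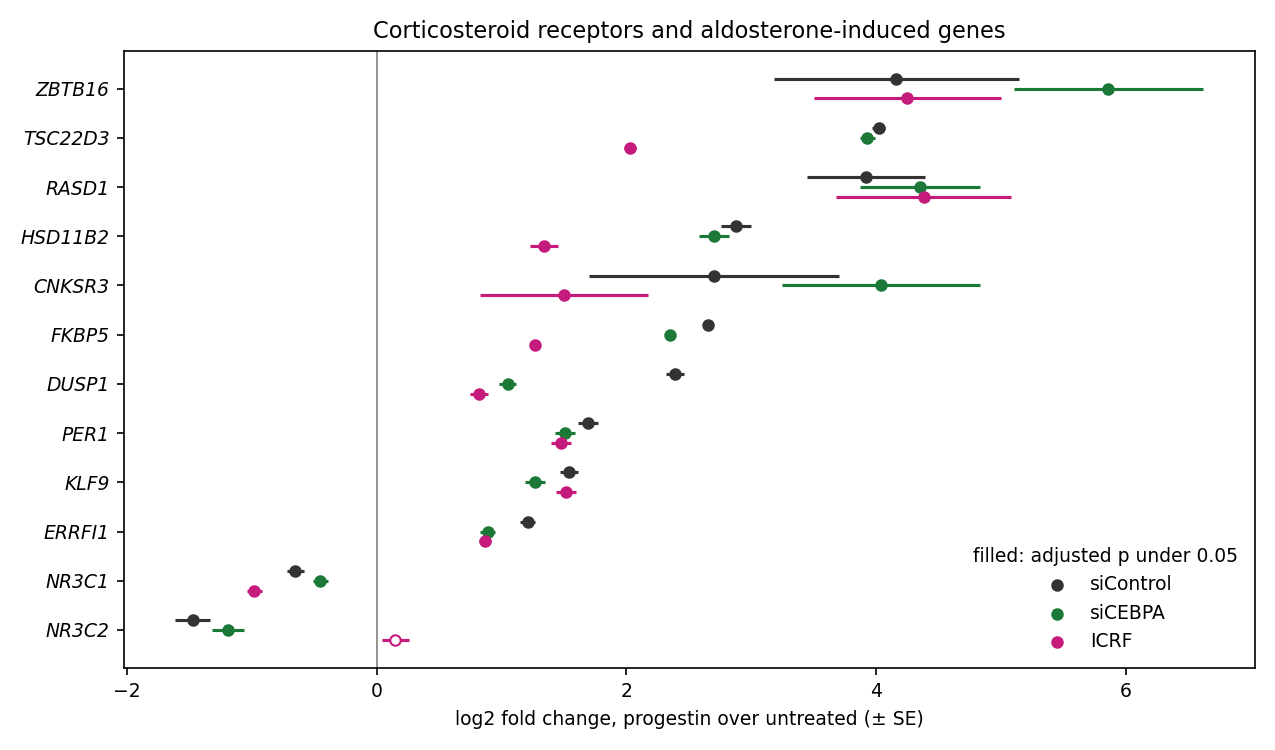
Hormone response of the 12 tested genes on the list of corticosteroid receptors and aldosterone-induced genes. The horizontal axis is the log2 fold change of progestin over untreated from edgeR with ± 1 SE, colours are the 3 settings, and filled points had an adjusted p under 0.05. All genes but NR3C1 and NR3C2 lie to the right of 0, and ZBTB16, RASD1 and CNKSR3, which stayed under 1 CPM on average in each group, have the widest bars.

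Of the kinases and substrates around SGK, 7 of 15 rose and 5 fell in siControl cells, 7 and 5 in siCEBPA cells, and 8 and 5 in ICRF cells. Over all genes, 29.2% rose and 29.3% fell in siControl, 29.9% and 28.4% in siCEBPA, and 31.3% and 30% in ICRF cells. PDPK1, whose product activates SGK kinases by phosphorylation, went from 126 to 375 CPM in siControl cells (1.57 ± 0.04, n = 2 against 2, edgeR adjusted p = 3.05e-14) and rose by 1.20 in siCEBPA and 0.98 in ICRF cells. NDRG1, a widely used SGK substrate, went from 9.41 to 45.2 CPM in siControl, from 5.62 to 70.9 CPM in siCEBPA and from 2.60 to 41.9 CPM in ICRF cells. Its response was 2.24, 3.65 and 3.99 on the log2 scale, and that in siCEBPA cells was higher than in siControl cells by 1.41. The messenger RNA of NDRG1 and of SGK1 was lower untreated and higher treated in siCEBPA than in siControl cells. A link between them was not tested, and kinase activity was not measured. FOXO1, another substrate gene, rose in each setting (1.89, 1.79 and 1.22), and GSK3B rose in siControl and siCEBPA cells (0.54 and 0.13) but fell in ICRF cells (-0.47). The 0.13 is about the size by which scaling moved the median of all genes in siCEBPA cells, from -0.03 to -0.16 or -0.19. Those that fell in siControl cells included MTOR (-0.27), MLST8 (-0.22), PIK3CA (-0.14) and NDRG2 (-0.14).

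In the list of channel ubiquitination and trafficking, 7 of 16 genes rose and 6 fell in siControl cells, 8 and 6 in siCEBPA cells, and 4 and 7 in ICRF cells. Over all genes the shares rising and falling were 29.2% and 29.3%, 29.9% and 28.4%, and 31.3% and 30%, and the 11 called of 16 with ICRF are near the 61.4% of all genes. NDFIP2, an adaptor that activates ligases of the NEDD4 family, went from 54.8 to 143 CPM in siControl cells (1.37 ± 0.05, n = 2 against 2, edgeR adjusted p = 2.53e-12) and rose by 1.30 in siCEBPA and 0.88 in ICRF cells. WWP1, another ligase of that family, fell in each setting (-0.89, -0.97 and -0.67). USP10, a deubiquitinase gene, rose in each (0.56, 0.61 and 0.25), and so did YWHAG, a 14-3-3 gene (0.27, 0.18 and 0.21). The 0.18 of YWHAG is close to the shift that scaling gave the median of all genes in siCEBPA cells, from -0.03 to -0.16 or -0.19. In the list of proteases that cleave and open the channel and their inhibitors, 3 of 7 rose and 2 fell in siControl and in siCEBPA cells, and 1 rose and 2 fell in ICRF cells, where 58.5%, 58.2% and 61.4% of all genes were called. PRSS8, encoding the activating protease prostasin, fell from 169 to 87.5 CPM in siControl cells (-0.97 ± 0.07, adjusted p = 2.09e-07), by 0.98 in siCEBPA and by 0.83 in ICRF cells. SPINT1, an inhibitor gene, fell too (-0.20, -0.12 and -0.36). TMPRSS2 rose in each setting (1.24, 1.39 and 0.69), while ST14 (0.35, 0.25 and -0.04) and FURIN (0.28, 0.39 and 0.07) did not pass with ICRF. Of 9 other pump subunits tested in the siRNA libraries, 4 rose, ATP1A4 and ATP1B3 among them, and 2 fell (FXYD5 and FXYD6) in both. In ICRF cells 3 of 8 rose, ATP1A4 and ATP1B2 among them, and 2 fell (FXYD3 and FXYD5). Both named risers were at low levels there, ATP1A4 going from a mean of 0.206 to 1.52 CPM and ATP1B2 from 0.147 to 0.994 CPM.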

How the data were processed

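RNA was counted in 12 libraries, grouped by their titles. The deposited values are raw counts of read pairs per gene, which the authors made with featureCounts 1.5.1 (paired, reverse-strand) on GENCODE 24 and hg38, per the file headers. The files name STAR alignments and no option for reads with several alignments. STAR and Trimmomatic are named without versions in the submitters' processing notes. Tests used edgeR 4.0.16 in R 4.3.3: filterByExpr, TMM factors and the quasi-likelihood test with Benjamini-Hochberg adjustment over all genes tested, at an adjusted p of 0.05. One fit held the 8 siRNA libraries (18351 genes), another the 4 ICRF libraries (18556) and another all 12 (19003), for the difference between ICRF and siControl. CPM used the TMM factors of the last. Levels per kb used the exon length in the files.

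Depth ran from 57364785 to 148624099 counts per library. The alternatives were 8 settings (DESeq2 1.42.0, DESeq2 size factors in edgeR, upper quartile scaling, no scaling factors, no filter on low counts, a replicate block, all 12 libraries in one fit, and each library left out). Genes named are the 7, the 4 of each other list with the smallest p in siControl cells, any behind a count of 5 or fewer, and the 3 most like each of the 7. The members and lists were chosen with earlier results of these data known. Some genes the rule takes are not reported here. Steps were tested on simulated counts. ChIP-seq was not used here.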

Additional observations from a re-analysis of the deposited data

Results flagged for a closer look

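The hormone response differed between settings in 5 tests of the difference itself (edgeR, adjusted p under 0.05). Of all genes, 7.24% were called for the difference between siCEBPA and siControl cells, and 48.9% for that between ICRF and siControl cells. SGK1 responded more in siCEBPA than in siControl cells, by 1.60 ± 0.22 on the log2 scale (adjusted p = 0.000235), and more with ICRF than in siControl cells, by 0.74 ± 0.20 (adjusted p = 0.00329). ATP1B1 responded less in siCEBPA than in siControl cells (-0.23 ± 0.06, adjusted p = 0.018). SCNN1A fell further with ICRF than in siControl cells (-0.51 ± 0.07, adjusted p = 2.86e-06). NEDD4L rose with progestin in siControl cells and fell with ICRF, a difference of -1.78 ± 0.08 (adjusted p = 2.61e-13). The ICRF comparisons set libraries of different label sets side by side.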

How the results depend on the processing

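Of 728 alternative values of the 49 tests on the 7 genes, 679 kept their direction and their side of the threshold, 19 fell short of it, 13 newly passed it and 17 changed sign. No change of sign concerned a call. The number of members called lower with hormone in siControl cells went from 1 to 3 with upper quartile scaling and to 3 without scaling factors, and in siCEBPA cells from 2 to 1 with DESeq2. Genes with a higher response in siCEBPA cells went from 768 to 1159 without a filter on low counts. Leaving out 1 library at a time, they ran from 383 to 811 and those with a lower response from 305 to 570 (561 with all libraries). The lowest were reached without siControl progestin replicate 1 (383 and 309) or replicate 2 (474 and 305), and without siCEBPA untreated replicate 1 it was 359 lower. Members called lower then ran from 0 to 1 for that difference and from 1 to 2 for hormone in siCEBPA cells. Replicate numbers were not taken as pairs, since not every pair of siRNA groups correlated above 0.1 by number: 3 of 6 did (0.28, 0.34 and 0.35) and the 3 with treated siControl did not (0 to 0.03). The ICRF pair was at 0.06. With the replicate block 1324 genes had a higher and 947 a lower response in siCEBPA cells, and SGK3 passed in siCEBPA cells (-0.16, adjusted p = 0.0416).

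The signs that changed were these. SCNN1A under the CEBPA siRNA without hormone was 0.02 with upper quartile scaling and 0.07 without scaling factors, and with hormone 0.01 without them, as SGK3 was 0.04. The difference of ATP1B1 between ICRF and siControl was 0.02 with upper quartile scaling, 0.13 without scaling factors and 0.01 without a filter, and that of SCNN1B was 0.01 without scaling factors. With 1 library left out, SCNN1B under hormone in siControl cells ran from -0.22 to 0.01, and under the CEBPA siRNA without hormone SCNN1A ran from -0.08 to 0.02 and SCNN1G from -0.06 to 1.06. The difference between siCEBPA and siControl ran from -0.09 to 0.01 for SCNN1A and from -0.35 to 0.77 for SCNN1G. That between ICRF and siControl ran from -0.34 to 0.57 for SCNN1G and from -0.10 to 0.00 for ATP1B1. SCNN1B with hormone in ICRF cells passed with upper quartile scaling (-0.33, adjusted p = 0.0207) and without ICRF untreated replicate 1 (-0.35) or progestin replicate 1 (-0.40). The causes were not tested. With 15 to 76 counts, untreated SCNN1G limits every comparison of its untreated level.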

Other observations

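Other transporters of epithelia were measured too, where 58.5% of all genes were called with hormone in siControl, 58.2% in siCEBPA and 61.4% in ICRF cells. Of 16 tested WNK kinases, sodium cotransporters and exchangers, 9 rose and 4 fell in siControl cells (median 0.22), 9 and 4 in siCEBPA cells (0.39), and 8 of 14 rose and 5 fell in ICRF cells (0.15). STK39, the kinase that passes WNK signals to cotransporters, rose by 1.57 ± 0.05 in siControl, 1.06 in siCEBPA and 0.43 in ICRF cells. WNK2 rose from 5.64 to 20.7 CPM in siControl cells (1.84 ± 0.12) and was at -0.11 with ICRF (edgeR adjusted p = 0.435). SLC9A2, a sodium and proton exchanger gene, rose in each setting (0.66, 0.74 and 0.53), and SLC9A3R1, a scaffold gene, fell in each (-0.62, -0.39 and -0.85).

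Of 10 tested chloride, potassium and water channels, 3 rose and 2 fell in siControl cells, and 3 rose and 3 fell in siCEBPA cells. With ICRF 1 of 9 rose and 4 fell. The shares called are near the 58.5%, 58.2% and 61.4% of all genes. KCNK5, a potassium channel gene, fell from 47.8 to 17.3 CPM in siControl cells (-1.48 ± 0.06). It also fell in siCEBPA cells (-1.81) and was at 0.09 with ICRF from an untreated mean of 7.04 CPM. The water channel gene AQP3 rose in siControl and siCEBPA cells (0.48 and 0.46) and fell with ICRF (-0.82). KCNMA1 had the same order of signs (0.70, 0.82 and -0.38). AQP5 fell in each setting, by 1.08 in siControl and 2.56 in ICRF cells, from untreated means of 0.394 to 1.35 CPM. SGK2, the remaining SGK gene, chosen here after its values were seen, had group means of 0.0404 to 0.656 CPM, and rose in each setting (3.56, 3.39 and 2.29). SCNN1D, the gene of the delta subunit, also chosen after its values were seen, had group means of 0.561 to 2.57 CPM and was higher with the CEBPA siRNA both without (1.99-fold) and with hormone (1.94-fold).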
